A study of Mus musculus with 35 samples.

Results

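The keratins of the epidermis between hair follicles were followed through radiation dermatitis of mouse skin. The 8 genes were chosen by symbol: the basal keratins Krt5 and Krt14, the suprabasal keratins Krt1, Krt10, Krt2 and Krt77, and the simple epithelial keratins Krt8 and Krt18. They make up 8 of the 36106 genes in the deposited table, and all 8 were found there. Bulk RNA sequencing covered 35 skin samples of C57BL/6J mice, a common inbred strain, all female and 10 weeks old at the start. In 16 samples the skin of the left flank had received 25 Gy at 3.6 Gy per min over 420 s and was then shaved, and these were taken at weeks 1, 2, 3 and 4 with n = 4 each. Another 16 samples were labelled control skin of the same weeks, also with n = 4 each, and 3 came from sham mice without radiation. The submitters' text counts 19 mice, so a radiated and a control sample of equal week and replicate number were assumed to share a mouse. The main tests did not use this pairing and treated all samples as independent. Only an alternative fit, called the replicate block, added a term for the replicate number. The body site of the control skin is not stated, and weeks were sampled from different mice.

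Keratins build intermediate filaments as obligate pairs of an acidic type I and a basic type II chain. Dividing keratinocytes of the basal layer make Krt5 (type II) with Krt14 (type I), and cells that leave this layer switch to Krt1 (type II) with Krt10 (type I). Krt2 and Krt77 are further type II chains of suprabasal cells, and Krt8 (type II) with Krt18 (type I) is the pair of simple epithelia, which in skin marks Merkel cells and gland ducts. Injured epidermis adds the wound-induced keratins Krt6a, Krt6b, Krt16 and Krt17.

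The total count per library ran from 17362853 to 28487885. In week 4 the 8 keratins held 2.694% ± 0.189 of the counts of control skin and 1.421% ± 0.219 of those of radiated skin (SD, n = 4 each). In week 1 the radiated share was the higher, at 2.283% ± 0.404 beside 1.787% ± 0.213, in week 2 the shares were 2.276% ± 0.432 and 2.194% ± 0.419, and in week 3 the radiated libraries spread from 0.596% to 2.81% beside 1.901% ± 0.232. Levels are given as CPM, the count of a gene scaled to the size of its library with TMM factors. Tests are edgeR quasi-likelihood F tests with Benjamini-Hochberg adjustment over all genes tested, and a gene was called at an adjusted p under 0.05. Log2 fold changes are radiated over control unless said otherwise, and SE is the standard error. The samples of a group were taken to come from different mice, as the counts of mice and samples allow, and p-values measure the spread between them. In bulk skin, fewer keratinocytes and less keratin RNA per keratinocyte cannot be told apart. The label skin was checked first: none of 8 keratinocyte genes was at 0 throughout any group, and their summed level lay between 8400 and 33200 CPM even in radiated skin of week 3. This list includes the members Krt5, Krt14, Krt1 and Krt10, so the check is not independent of the values under study.

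The genes lie in the 2 keratin clusters of the mouse genome (GRCm38, GENCODE M21). The type II genes are on chromosome 15, with Krt5 (ENSMUSG00000061527) at 101707070 to 101712898, Krt2 (ENSMUSG00000064201) at 101810689 to 101818169, Krt1 (ENSMUSG00000046834) at 101845426 to 101850794, Krt77 (ENSMUSG00000067594) at 101858731 to 101869705 and Krt8 (ENSMUSG00000049382) at 101996698 to 102004482, all on the minus strand. Krt18 (ENSMUSG00000023043), a type I gene, lies beside them on the plus strand at 102028180 to 102032027. Krt10 (ENSMUSG00000019761) and Krt14 (ENSMUSG00000045545) are in the type I cluster on chromosome 11, at 99385254 to 99389364 and 100203162 to 100207548, both on the minus strand. Kallisto splits reads that fit several transcripts, and the members differ in how much sequence they share with other genes. Of the 31-base words of its principal transcript, Krt14 shared 29.2% with other genes, with Krt16 first at 18.2%, and Krt5 shared 15.8%, with Krt6a first at 9.46%. Krt8 shared 36.0%, mostly with the pseudogene Krt8-ps, and Krt18 shared 11.4%. The suprabasal genes shared little, 4.31% for Krt10, 0.62% for Krt77, 0.505% for Krt2 and 0.042% for Krt1. Counts that were not whole, as splitting leaves them, occurred in all 35 libraries for Krt5 and Krt14, in 9 for Krt77, in 3 for Krt10, in 1 for Krt8 and in none for the others. Whether shared reads were assigned to the right gene was not tested, so the counts of Krt5, Krt14, Krt8 and Krt18 are uncertain to that extent.

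The 120 bases before the transcription start are shown for the 3 suprabasal genes that were lower in radiated skin of week 4. Sequences are from RefSeq (GRCm38.p6), read 5′ to 3′ on the minus strand, and capitals mark matches of the letters TATANA on either strand, a pattern that includes TATAAA and was added after the sequences had been read.
Krt10 (chr11:99389365-99389484): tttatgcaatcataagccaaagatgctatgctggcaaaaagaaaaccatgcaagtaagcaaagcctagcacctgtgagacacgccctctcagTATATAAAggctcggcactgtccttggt
Krt77 (chr15:101869706-101869825): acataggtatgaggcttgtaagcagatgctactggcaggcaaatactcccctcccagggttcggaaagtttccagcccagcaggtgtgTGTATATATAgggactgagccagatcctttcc
Krt2 (chr15:101818170-101818289): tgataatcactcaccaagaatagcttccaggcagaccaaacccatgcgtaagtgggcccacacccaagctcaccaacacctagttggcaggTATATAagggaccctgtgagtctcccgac
All 3 held such a match between 26 and 32 bases before the start: Krt10 at 28 and 26, Krt77 at 32, 30 and 28, and Krt2 at 29. Among 32851 RefSeq promoters, 11.0% held TATANA within the same 120 bases on either strand. The stricter letters TATAAA were found in Krt10 and not in Krt77 or Krt2, against 6.34% of all promoters. RefSeq promoters were given for 7 members, Krt1 being the exception. In the 300 bases of those 7, neither TGANTCA (the AP-1 motif, held by 7.81% of all promoters) nor GGGCGG (the GC box, held by 35.7%) occurred on either strand. Among the other members, Krt8 held TATAAA at 3 and 1 bases before the start, and Krt18, Krt5 and Krt14 held no TATANA match in these 300 bases, but the RefSeq start of Krt14 lies 1518 bases inside the GENCODE gene. A match or its absence describes letters in a window and no more.

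Control and sham skin showed what these keratins look like without radiation. Per kb of the principal transcript, Krt10 was first in control skin of every week, with 2917 ± 436 CPM per kb in week 3 and 4012 ± 224 in week 4 (SD, n = 4 each). Krt77 followed with 2367 ± 476 and 3237 ± 248 CPM per kb, and Krt5 came next with 2280 ± 270 and 2951 ± 416. Krt10 was above Krt77 within 4 of 4 libraries of both weeks, and by more than their spread in week 4. Krt77 was above Krt5 in 2 of 4 libraries of week 3 and 3 of 4 of week 4, within their spread. Krt14 stood at 1216 ± 215 and 1018 ± 146 CPM per kb in weeks 3 and 4, and Krt1 at 181 ± 41.6 and 221 ± 25.6. So the suprabasal type II chain with the most RNA here was Krt77, not the textbook partner Krt1. Krt2, Krt8 and Krt18 had group means at or below 1.04 CPM per kb in control skin of weeks 1, 3 and 4, though single libraries were higher. Sham skin had Krt5 at 2199 ± 947, Krt10 at 2125 ± 711, Krt77 at 1668 ± 551 and Krt14 at 1319 ± 498 CPM per kb (SD, n = 3), with overlapping spreads, though Krt10 was above Krt77 in 3 of 3 libraries.

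**Figure D1:**
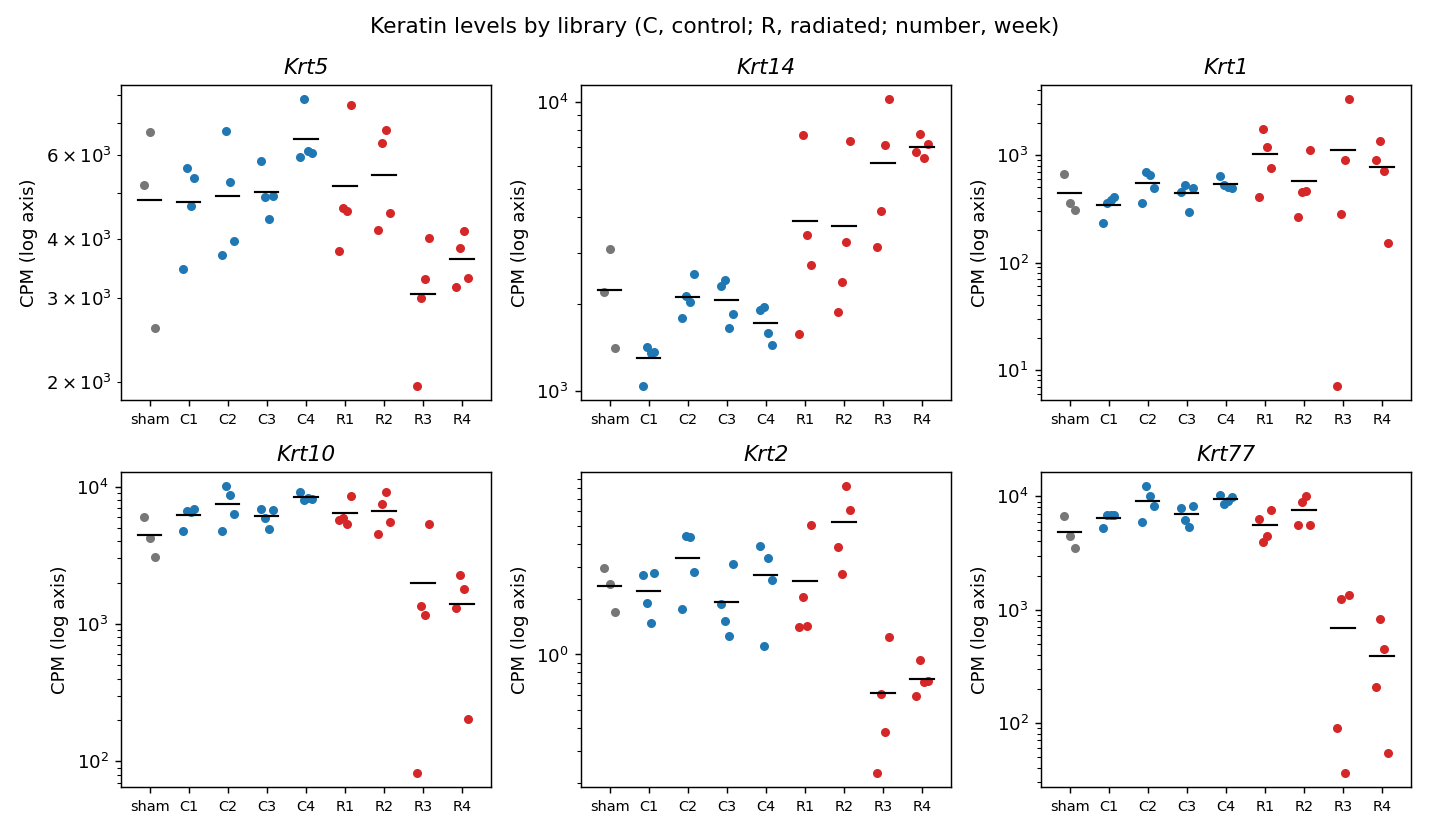
Level of the 6 keratins of stratified epidermis in each of 35 libraries (points), in CPM on a log axis, by group (C, control; R, radiated; the number is the week), with group means as bars. Krt14 lies between 6431 and 7735 CPM in radiated skin of week 4, above all control libraries, while Krt77 lies between 54.6 and 829.3 CPM there, below all of them.

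In week 4, 5 of the 6 members tested differed between radiated and control skin: Krt14 rose and Krt5, Krt10, Krt2 and Krt77 fell. Of all 17850 genes tested that week, 48.4% were called, 24.2% in each direction. In week 3, 3 of 7 tested members were called, with Krt14 higher and Krt2 and Krt77 lower, against 27.2% of all genes. In weeks 1 and 2 edgeR called 0 of 6 members, against 0% and 0.00577% of all genes. With the replicate block, edgeR called 0 genes in week 1 and 642 of 17345 in week 2, and no member was among them. At an unadjusted p under 0.05 there were 2 members in week 1 and 0 in week 2, against 14.1% and 13.8% of all genes. The Wald test of DESeq2 called 3 and 2 of the 8, against 2.23% and 3.95%. In counts simulated on the week 1 libraries, 22.47% of DESeq2 calls were false beside 8.96% of edgeR calls, so DESeq2 calls are the less certain. The medians over the tested members were 0.14, 0.11, -0.68 and -1.34 from week 1 to week 4, and those over all genes were 0.05, 0, 0.08 and 0.02.

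**Figure D2:**
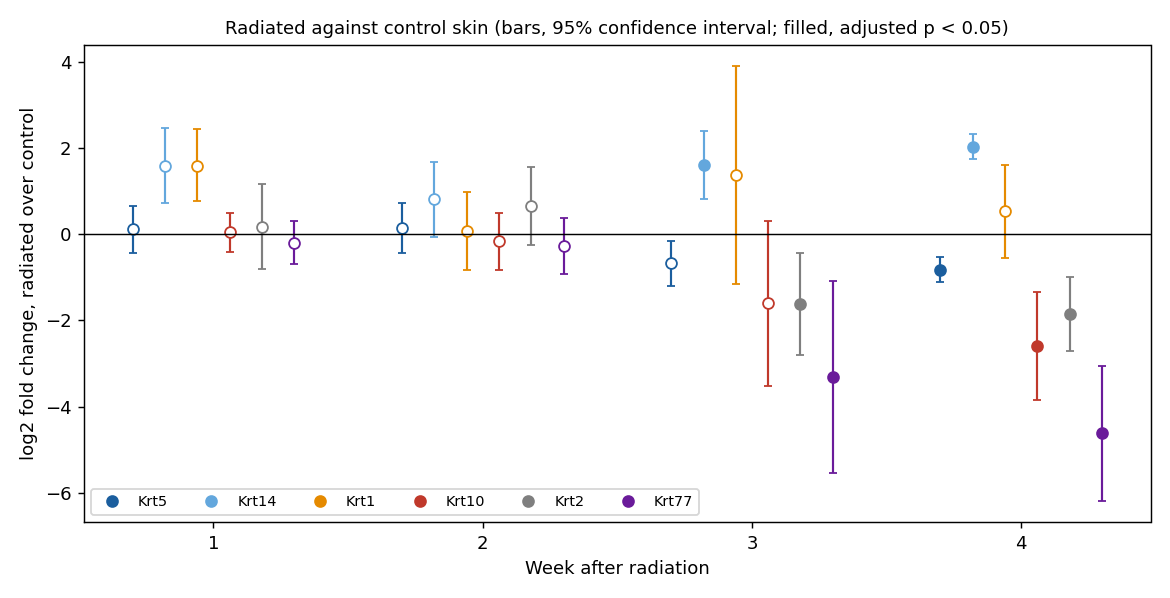
Log2 fold change of radiated over control skin (edgeR, 4 libraries against 4) for the 6 keratins of stratified epidermis in weeks 1 to 4, with 95% confidence intervals. Filled points passed an adjusted p of 0.05: Krt14 at 1.61 and 2.03 in weeks 3 and 4 stands apart from the points below 0, which reach -4.62 for Krt77 in week 4.

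Krt14, the type I chain of the basal layer, was the 1 member that rose, in weeks 3 and 4. In week 1 the radiated libraries held 1585, 7719, 3482 and 2745 CPM in the order of their numbers, and the control libraries 1046, 1427, 1363 and 1373 CPM. The groups did not overlap, as was so for 8.39% of all genes, but the log2 fold change of 1.59 (SE 0.399) did not pass in edgeR (adjusted p 0.189). Without radiated replicate 1, the lowest of its group, it was 1.84 and passed (edgeR adjusted p 0.0264), and DESeq2 called it with all libraries (adjusted p 0.00349). Without radiated replicate 2, the highest, it was 1 (edgeR adjusted p 0.324). In week 2 the radiated libraries held 1886, 2382, 3284 and 7366 CPM and the control libraries 1789, 2133, 2036 and 2554 CPM. Here the groups overlapped, and only radiated replicate 4 stood far above the rest (log2 fold change 0.81, SE 0.391, edgeR adjusted p 0.394).

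The 2 libraries with the highest Krt14 of weeks 1 and 2 were also those with the highest wound-induced keratins. The summed level of Krt6a, Krt6b, Krt16 and Krt17 was 14300 CPM in radiated replicate 2 of week 1 and 13700 CPM in radiated replicate 4 of week 2. In the other radiated libraries of these weeks it lay between 359 and 4870 CPM.

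In week 3 Krt14 was at 3168, 4208, 7130 and 10240 CPM in radiated skin and at 2307, 2431, 1663 and 1855 CPM in control skin. Every radiated library was above every control library, and the log2 fold change was 1.61 (SE 0.352, edgeR adjusted p 0.00993). In week 4 the radiated libraries drew together at 6707, 7735, 6431 and 7181 CPM, against 1920, 1955, 1595 and 1448 CPM in control skin. Krt14 was thus 4.08-fold higher, a log2 fold change of 2.03 (SE 0.124, edgeR adjusted p 3.4e-06), and was higher in 4 of 4 pairs. Krt16, with which Krt14 shares sequence, rose in the same comparison from 20.1 ± 8.59 to 4630 ± 1040 CPM (SD, n = 4 each), and the part of shared reads in the Krt14 count was not tested.

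Krt5, the type II partner of Krt14, went the other way. In week 3 its radiated libraries held 1965, 3003, 3290 and 4012 CPM and its control libraries 5826, 4886, 4402 and 4924 CPM. The groups did not overlap, which held for 31.7% of all genes that week, and the log2 fold change of -0.68 (SE 0.229) fell just short of the threshold (edgeR adjusted p 0.0519). Without radiated replicate 4 it was -0.83 and passed (edgeR adjusted p 0.0218), and DESeq2 called it with all libraries (adjusted p 0.0122). It did not pass with the replicate block (-0.72, edgeR adjusted p 0.111) or with total-count scaling (-0.44, edgeR adjusted p 0.179). Leaving out each library in turn gave edgeR adjusted p of 0.0218 to 0.125. In week 4 Krt5 was at 3175, 3833, 4152 and 3313 CPM in radiated skin and at 5937, 7850, 6101 and 6046 CPM in control skin. It was lower in 4 of 4 pairs, 1.78-fold, with a log2 fold change of -0.83 (SE 0.129, edgeR adjusted p 0.000541). In weeks 1 and 2 its log2 fold changes were 0.11 (95% confidence interval -0.43 to 0.66) and 0.15 (-0.43 to 0.72).

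Within a library the basal pair changed places. The log2 ratio of Krt14 to Krt5 counts in week 4 was -1.91 ± 0.19 for control and 0.96 ± 0.22 for radiated skin (SD, n = 4 each). In week 3 it was -1.29 ± 0.19 and 0.91 ± 0.39, and every radiated library of weeks 3 and 4 lay above every control and sham library. This ratio does not depend on how libraries are scaled. In weeks 1 and 2 only radiated replicate 2 (0.74) and radiated replicate 4 (0.70), the libraries with high wound-induced keratins, were above 0.

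Krt77, a type II chain of suprabasal cells, had the lowest log2 fold changes of the members tested in weeks 3 and 4. Its radiated libraries of week 1 held 6271, 3944, 4493 and 7611 CPM and those of week 2 held 5621, 8978, 10100 and 5598 CPM, overlapping control skin in both weeks. In week 3 they held 90.2, 1250, 36.5 and 1358 CPM, against 7938, 6220, 5334 and 8261 CPM in control skin. Radiated replicates 1 and 3 were lowest, and no radiated library reached a control library. The log2 fold change was -3.32 (SE 0.991, edgeR adjusted p 0.034), and it lost its call without radiated replicate 1 (adjusted p 0.0512) or without any one control library (0.0562 to 0.0688). With the block it was -4.60 (edgeR adjusted p 0.0289). In week 4 Krt77 was at 208, 829.3, 453 and 54.6 CPM in radiated skin and at 10290, 8639, 9183 and 9846 CPM in control skin. This was 24.5-fold lower, a log2 fold change of -4.62 (SE 0.7, edgeR adjusted p 0.000477), and lower in 4 of 4 pairs. Without radiated replicate 2, the highest, it was 39.7-fold lower (-5.31, edgeR adjusted p 0.000312).

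Krt10, the suprabasal type I chain, fell in week 4 as well. In week 3 its radiated libraries held 82.8, 1348, 1157 and 5334 CPM and its control libraries 6856, 5907, 4900 and 6768 CPM. Radiated replicate 4 lay among the control libraries, and the log2 fold change of -1.61 (SE 0.854) did not pass (edgeR adjusted p 0.187). Without that library it was -2.79 (edgeR adjusted p 0.0249), and the single fit of 35 samples called it with all libraries (adjusted p 0.0373). With the replicate block it was -2.44 and did not pass (edgeR adjusted p 0.111). Leaving out each library in turn gave edgeR adjusted p of 0.0249 to 0.314. In week 4 Krt10 was at 1299, 2268, 1792 and 201.8 CPM in radiated skin and at 9086, 8040, 8296 and 8183 CPM in control skin. The groups were apart, as for 46.1% of all genes that week, with a log2 fold change of -2.59 (SE 0.559, edgeR adjusted p 0.0038), 6.02-fold lower. In weeks 1 and 2 the log2 fold changes were 0.04 (95% confidence interval -0.41 to 0.5) and -0.17 (-0.83 to 0.5).

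Krt1, the usual type II partner of Krt10, was not called by edgeR in any of the 4 weeks. In week 1 the radiated libraries held 409.6, 1766, 1203 and 764.2 CPM and the control libraries 231.5, 361.8, 380.9 and 407.5 CPM. The lowest radiated library was next to the highest control library, and the log2 fold change was 1.59 (SE 0.38, edgeR adjusted p 0.189). Without radiated replicate 1 it was 1.85 and passed (edgeR adjusted p 0.017), and DESeq2 called it with all libraries (1.57, adjusted p 0.00236). Leaving out each library in turn gave log2 fold changes of 1.2 to 1.85 and edgeR adjusted p of 0.017 to 0.516. In week 3 radiated skin ran from 7.13 CPM in replicate 1 through 282.5 and 906.5 to 3312 CPM in replicate 4, below and above all control libraries, which lay between 298.4 and 530.6 CPM. The log2 fold change of 1.36 (SE 1.13, edgeR adjusted p 0.394) turned to -0.12 without replicate 4 and to -0.02 with the replicate number as a block. In week 4 Krt1 was at 900.9, 1363, 706.8 and 152.1 CPM in radiated skin and between 495.4 and 634.3 CPM in control skin. The log2 fold change was 0.53 with a 95% confidence interval of -0.55 to 1.61 (edgeR adjusted p 0.392). Without radiated replicate 4, the lowest, it was 0.87 and passed (edgeR adjusted p 0.00827). Leaving out each library in turn gave 0.12 to 0.87 with edgeR adjusted p of 0.00827 to 0.852. With the replicate block it was 0.21 (edgeR adjusted p 0.747).

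The 2 suprabasal type II chains therefore parted within single libraries. The log2 ratio of Krt77 to Krt1 counts lay between 3.55 and 4.52 in all 16 control libraries and between 3.32 and 3.64 in sham skin. In radiated skin of week 4 it was -2.11, -0.72, -0.64 and -1.48, so Krt1 had more counts than Krt77 in 4 of 4 libraries. In week 3 the radiated libraries were split, with 3.66 and 2.15 in replicates 1 and 2 and -4.63 and -1.29 in replicates 3 and 4. The ratio of Krt1 to Krt10 in week 4 was -3.96 ± 0.1 for control and -0.75 ± 0.41 for radiated skin on the log2 scale (SD, n = 4 each). The ratio of Krt77 to Krt10, near 0 in every control library (-0.02 to 0.36), was -1.99 ± 0.49 in radiated skin of week 4. Radiated replicate 3 of week 3 stood out, with a Krt77 to Krt10 ratio of -4.99 beside 0.12, -0.11 and -1.97 in the others of its group.

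**Figure D3:**
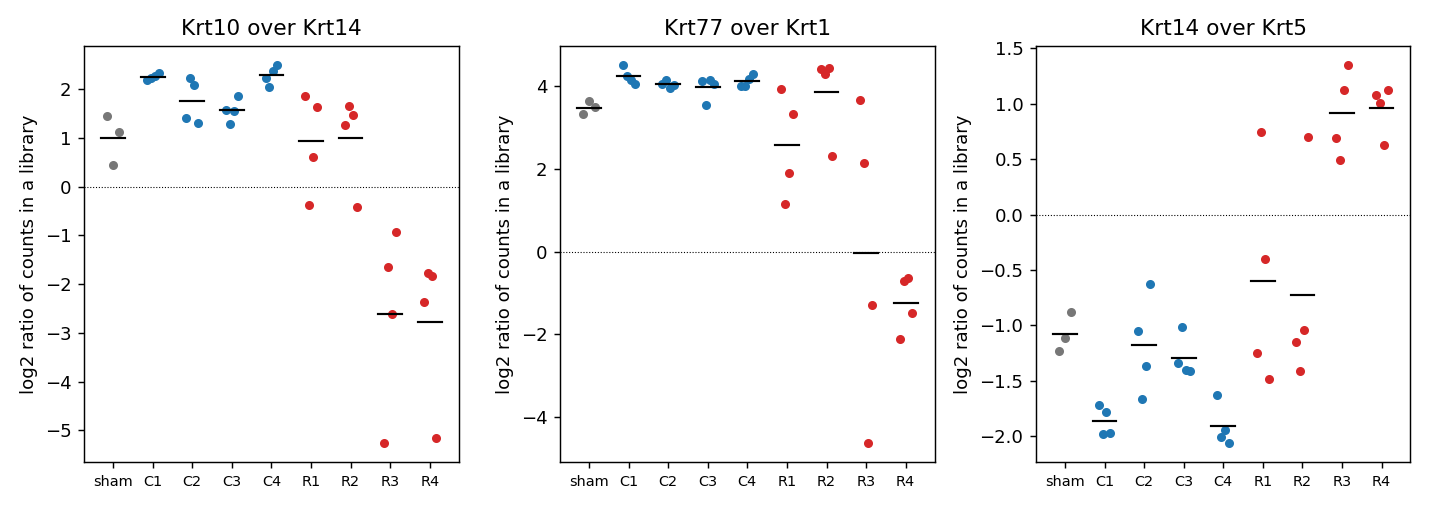
Log2 ratio of the counts of 2 keratins within each library (points) by group, with group means as bars; a dotted line marks equal counts. In radiated skin of week 4 Krt10 over Krt14 averages -2.78, Krt77 over Krt1 averages -1.24 and Krt14 over Krt5 averages 0.96, each on the other side of 0 from control skin.

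The ratio of Krt10 to Krt14, suprabasal to basal among the type I chains, was 2.29 ± 0.2 for control and -2.78 ± 1.60 for radiated skin of week 4 on the log2 scale (SD, n = 4 each). In week 3 it was 1.57 ± 0.24 and -2.61 ± 1.89. All 8 radiated libraries of these weeks lay between -5.26 and -0.94, below every control and sham library. Per kb, radiated skin of week 4 had the order Krt14 (4131 ± 337), Krt5 (1647 ± 207), Krt10 (664 ± 423), Krt1 (318 ± 204) and Krt77 (132 ± 115 CPM per kb). Krt14 was above Krt5 and Krt5 above Krt10 by more than their spread, while the group spreads of Krt10 and Krt1, and of Krt1 and Krt77, overlapped. Within each of the 4 libraries, though, Krt10 was above Krt1 and Krt1 above Krt77 per kb.

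Krt2, a late suprabasal chain, was scarce throughout, with 1.11 to 4.39 CPM in the control libraries, or 25 to 102 counts. In week 3 radiated skin held 0.229, 0.606, 0.381 and 1.244 CPM (5, 13, 10 and 27 counts) and control skin 1.89, 1.515, 1.255 and 3.083 CPM. The groups were just apart, with a log2 fold change of -1.62 (SE 0.53, edgeR adjusted p 0.0472). The call ended with total-count scaling (adjusted p 0.0841), without the filter on low counts (0.0603) and on leaving out any of 7 of the 8 libraries (0.0585 to 0.132), while without radiated replicate 4 it was -2.21 (0.0131). In week 4 the radiated libraries held 0.598, 0.931, 0.712 and 0.714 CPM and the control libraries 3.863, 1.106, 3.332 and 2.537 CPM. Krt2 was 3.62-fold lower, with a log2 fold change of -1.85 (SE 0.383, edgeR adjusted p 0.003), and lower in 4 of 4 pairs. In week 2 it had stood at 5.23 ± 2.43 CPM in radiated and 3.33 ± 1.28 CPM in control skin (log2 fold change 0.65, adjusted p 0.516 in edgeR).

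The simple keratins were scarce in most libraries, and edgeR called neither in a weekly comparison with control skin, where it tested Krt8 in 1 week and Krt18 in none. Krt8 had 3 counts or fewer in 11 and Krt18 in 10 of the 35 libraries. In week 1 all 4 radiated libraries had 1 to 3 counts of Krt8, and control skin 61, 0, 11 and 53. DESeq2, which was run without this filter on low counts, called Krt8 lower in week 1 (log2 fold change -4.37, adjusted p 0.0113) and both genes lower in week 2 (-5.71 and -6.14, adjusted p 0.0133 and 0.0167), against 2.23% and 3.95% of all genes. The single edgeR fit of 35 samples also called both in week 2 (adjusted p 0.0344 and 0.0321), while edgeR without the filter called neither (0.141 and 0.14). Krt8 passed the filter in week 3, where its log2 fold change was 0.73 (SE 1.08, edgeR adjusted p 0.644). In week 3 Krt18 was at 1.143, 0.233, 0.952 and 1.059 CPM in radiated skin (25, 5, 25 and 23 counts) and at 0.45, 0.082, 0.279 and 0.171 CPM in control skin. One radiated library lay within the control range, and the others were above it.

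The highest values came from single control libraries. Krt8 and Krt18 were at 43.1 and 38.9 CPM in control replicate 4 of week 2, at 8.50 and 8.12 CPM in control replicate 1 of week 2 and at 5.19 and 5.40 CPM in control replicate 1 of week 4. Control replicate 1 of week 1 had 2.84 and 4.14 CPM. The summed level of Krt7, Krt19 and Krt20, further keratins of simple epithelia, was highest in the same 4 libraries among control skin of these weeks, at 135, 40.8, 31.7 and 18.6 CPM, and was at most 10.6 CPM in the other 8. The 6 Merkel cell markers summed to 74.7, 45.1, 50 and 40.7 CPM in these 4 libraries and to between 31.9 and 36.1 CPM in the other 8. In radiated skin of week 4, where Krt8 was at most 0.272 CPM, the Merkel cell markers summed to 32.7 to 54.6 CPM. Their part in the Krt8 and Krt18 values was not tested.

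**Figure D4:**
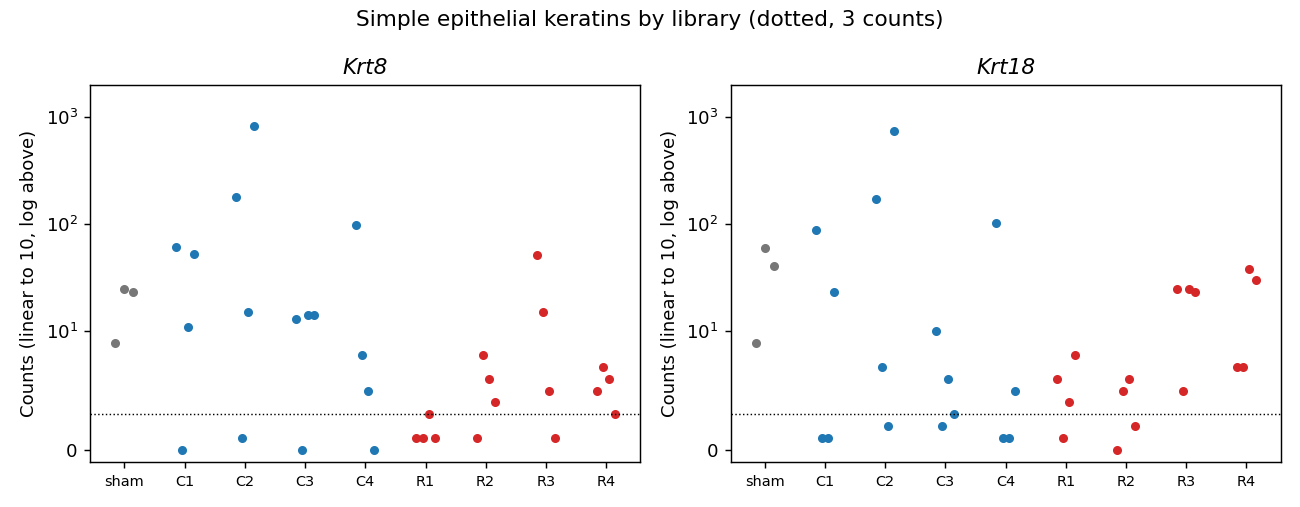
Counts of Krt8 and Krt18 in each of 35 libraries (points) by group, on an axis that is linear to 10 and logarithmic above; the dotted line marks 3 counts. Control replicate 4 of week 2 stands highest with 826 and 746 counts, and all 4 radiated libraries of week 1 lie at or below the line for Krt8.

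Whether the radiated-minus-control difference changed over the 4 weeks was tested in 1 model of 32 libraries. This interaction passed for 4 of 8 members, against 15.6% of all genes: Krt77 (adjusted p 0.00251), Krt2 (0.0136), Krt5 (0.0418) and Krt18 (0.0475 in edgeR). Krt18 lost its call with the replicate block (edgeR adjusted p 0.196) and without the filter on low counts (0.051), where Krt5 lost its call as well (0.0572). On leaving out each replicate number in turn, which removes 8 libraries, Krt5 lost its call every time (0.112 to 0.179), and Krt77 kept it every time (0.0114 to 0.0446). Krt2 ranged from 0.0239 to 0.125 and Krt18 from 0.0377 to 0.405. Krt14, Krt1, Krt10 and Krt8 did not pass (adjusted p 0.343, 0.668, 0.0774 and 0.106 in edgeR). The likelihood ratio test of DESeq2 called 5 members, with Krt10 added (adjusted p 0.0182), against 20.7% of all genes. On leaving out each replicate number Krt10 ranged from 0.0403 to 0.296 in edgeR.

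Single steps of this difference were tested in the same data, as an addition made after seeing them, and no other setting was run on them. From week 2 to week 3 the log2 difference moved by -3.05 (SE 0.953) for Krt77 and by -2.28 (SE 0.672) for Krt2, with adjusted p 0.0497 and 0.0376 in edgeR. For Krt8 and Krt18 it moved by 6.44 and 7.91 (adjusted p 0.0499 and 0.0252 in edgeR), though Krt8 had not passed the test over 4 weeks, in a step that starts from the 2 control libraries of week 2 with 826 and 179 counts of Krt8 and 746 and 171 of Krt18. The steps from week 1 to 2 and from week 3 to 4 called none of the 8. The share of all genes called was 0%, 6.89% and 0.419% in the 3 steps. Within radiated skin alone, Krt2 (adjusted p 0.00116) and Krt77 (0.00691) differed over the weeks in edgeR, 2 of 7 tested members, against 23.3% of all genes, and DESeq2 called 6 members against 28.9%. Within control skin alone, Krt14 differed (edgeR adjusted p 0.0116), 1 of 8 members against 23.9% of all genes, with 1302 ± 173 CPM in week 1 and 2128 ± 319 CPM in week 2 (SD, n = 4 each). On leaving out each replicate number its adjusted p ran from 0.0203 to 0.0753 in edgeR. The count was 5 with total-count scaling (Krt5, Krt14, Krt1, Krt10 and Krt77) and 4 in DESeq2 (Krt14, Krt1, Krt77 and Krt18), against 24.7% and 31.8% of all genes.

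Radiated skin was then set against sham skin, from mice that had received no radiation. The 4 comparisons of radiated with sham skin share their 3 sham libraries. In week 4 Krt14 was higher than in sham skin (log2 fold change 1.69, SE 0.285, adjusted p 0.00349), and Krt2 (-1.63, SE 0.326, adjusted p 0.00738) and Krt77 (-3.62, SE 0.758, edgeR adjusted p 0.00907) were lower. These are 3 of 7 tested members, against 26.7% of all genes (15.1% higher and 11.5% lower). Krt10 was lower by -1.64 (SE 0.637) and did not pass (edgeR adjusted p 0.0913), though its radiated libraries, at most 2268 CPM, were all below the sham libraries at 6030, 4248 and 3073 CPM, a lack of overlap shared by 37.7% of all genes. Krt77 was at -4.31 without radiated replicate 2 (edgeR adjusted p 0.00636). Krt10 passed at -1.27 without radiated replicate 4 (edgeR adjusted p 0.0318), and on leaving out each library in turn its edgeR adjusted p reached 0.214. Krt5, called against control skin, overlapped sham skin, which held 5191, 6710 and 2596 CPM (log2 fold change -0.38, adjusted p 0.407 in edgeR). Without sham replicate 3, the lowest, it was -0.69 and passed (edgeR adjusted p 0.0344). Leaving out each library in turn gave Krt5 -0.69 to -0.06, with edgeR adjusted p of 0.0344 to 0.918. With the replicate number as a block, which here pairs different mice, Krt2 lost its call (adjusted p 0.0575) and Krt1 gained one at 1.23 (edgeR adjusted p 0.0437).

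In week 3 only Krt2 passed against sham skin (log2 fold change -1.90, SE 0.561, edgeR adjusted p 0.0484), 1 of 8 members against 18.2% of all genes (7.76% lower). It lost the call on leaving out any sham library or radiated replicate 1, 2 or 3 (edgeR adjusted p 0.0725 to 0.151), with total-count scaling (0.058) and without the filter (0.0519), and was at -2.49 without radiated replicate 4 and -2.5 with the block (0.0121 and 0.038). Krt14 had 1.51 (SE 0.474, adjusted p 0.0595) and Krt77 -2.80 (SE 1.08, edgeR adjusted p 0.106), with no overlap between groups for either, as for 33.7% of all genes. With the block, Krt77 passed at -5.08 (edgeR adjusted p 0.033). Krt14 passed with total-count scaling (0.0406) and without radiated replicate 1 (0.045), but not with the block (edgeR adjusted p 0.167). Markers of other cells moved with these comparisons too. Against sham skin, 9 of 13 hair follicle genes fell in week 3 and 3 of 13 in week 4 (13 and 6 with the block), with sums of 8.87 to 453 and 21.8 to 2690 CPM beside 970 to 11700 CPM in sham skin. In week 4, 5 of 5 fibroblast genes rose (22800 to 36500 CPM beside 3790 to 8570 CPM) and 5 of 5 muscle genes fell (893 to 2110 CPM beside 5830 to 12700 CPM). In both weeks 5 of 6 leukocyte genes rose. Of all genes, 10.4% were called higher and 7.76% lower in week 3, and 15.1% and 11.5% in week 4. Their part in the keratin levels was not tested. In weeks 1 and 2 edgeR called 0 of 6 members, against 1.75% and 5.05% of all genes. At an unadjusted p under 0.05 there was 1 member each, against 16.6% and 23.6%, and DESeq2 called 2 and 1, against 6.09% and 12.5%.

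Control skin was also set against sham skin, since control samples were taken to come from mice that carried a radiated site. EdgeR called 0 members in each of the 4 weeks, against 4.92%, 2.44%, 11.4% and 3.6% of all genes. At an unadjusted p under 0.05 there were 1, 2, 0 and 2 members, against 27.3%, 21.1%, 29.7% and 22% of all genes. DESeq2 called 1, 1, 1 and 2 members, against 16.8%, 10.8%, 19.1% and 9.51%. The nearest were Krt77 and Krt10 in week 4, with log2 fold changes of control over sham of 0.95 (SE 0.227, adjusted p 0.0595) and 0.91 (SE 0.226, edgeR adjusted p 0.0649). Their control libraries were all above the sham libraries, and groups were apart for 20.8% of all genes. Both passed without sham replicate 1 (edgeR adjusted p 0.00359 and 0.0048), and so did Krt1, at 0.69 (0.0238). On leaving out each library in turn, the edgeR adjusted p of Krt77, Krt10 and Krt1 reached 0.16, 0.173 and 0.912. In week 1 Krt14 had -0.79 (SE 0.249, edgeR adjusted p 0.0899) and passed with total-count scaling (0.0482). Hair follicle genes moved with these groups: 13 of them summed to 970 to 11700 CPM in sham skin and to 33.6 to 39.6 CPM in control skin of week 4. Their part in the keratin levels was not tested.

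Around the members, other keratin genes were read from fixed lists in the same fits. All 4 wound-induced keratins rose in weeks 3 and 4, among them Krt16 and Krt6b, whose log2 fold changes in week 4 were 7.86 and 10.66 (edgeR adjusted p 1.4e-06 and 1.49e-08). In week 3, 3 of the 4 passed when the block was added. Of further keratins of stratified epithelia, 2 of 6 tested fell in week 3 and 3 of 7 in week 4, and none rose (3 and 4 fell with the block). Of all genes, 13.6% were called in each direction in week 3 and 24.2% in week 4. Krt80 fell by 2.27 and Krt23 by 3.61 on the log2 scale in week 4. The 3 other simple keratins Krt7, Krt19 and Krt20 had no call in edgeR in any of the 4 weeks.

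Of 11 basal layer and anchoring genes, 1 rose and 5 fell in week 3, and 2 rose and 4 fell in week 4, with a median log2 fold change of -0.35 and -0.1. In each direction 13.6% of all genes were called in week 3 and 24.2% in week 4, and the counts of week 4 are near that share. In week 4, Krt15, a keratin of basal and stem cells, fell by 4.48 on the log2 scale and Col17a1, the hemidesmosome collagen, by 1.51. Trp63, the transcription factor that maintains basal keratinocytes, fell by 1.61 in week 3, from 622 ± 60.9 to 201 ± 91.1 CPM (SD, n = 4 each).

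Among 18 regulators of stratification, 1 rose and 6 fell in week 3, and 1 rose and 11 fell in week 4 (median -0.63). Gata3 and Klf4, transcription factors of the suprabasal and barrier programme, fell by 2.95 and 1.66 on the log2 scale in week 4, and Cebpb rose by a log2 fold change of 1.2. Of 13 desmosome genes, 2 rose and 4 fell in week 3, and 3 rose and 8 fell in week 4 (median -0.72). The shares of all genes per direction were again 13.6% and 24.2%, and the desmosome rises of both weeks are near them. Dsc2, a desmosomal cadherin, rose by a log2 fold change of 2.65 in week 4, while Dsg1a, a cadherin of the upper layers, fell by 1.90 and the plakin Ppl by 1.88.

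Of 14 late differentiation genes, 1 rose and 4 fell in week 3, where the median log2 fold change was 0.24. In week 4, 4 rose and 6 fell (median -0.33), and the 4 rises are near the 24.2% of all genes. Flg2, a filaggrin-type protein, fell by 4.24 on the log2 scale in week 4, and Sbsn by 2.41. Tgm3, a transglutaminase that crosslinks the cornified envelope, rose by a log2 fold change of 2.52 and Casp14 by 1.33. With the block in week 3, Cebpb, Dsg1b and Tgm3 were among the genes that lost their calls (adjusted p 0.0766, 0.0795 and 0.125 in edgeR). None of these lists had a call in week 1 or 2 without the block. With it, the basal layer and stratification lists had 1 lower gene each in week 2, and the further stratified keratins 1 higher.

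**Figure D5:**
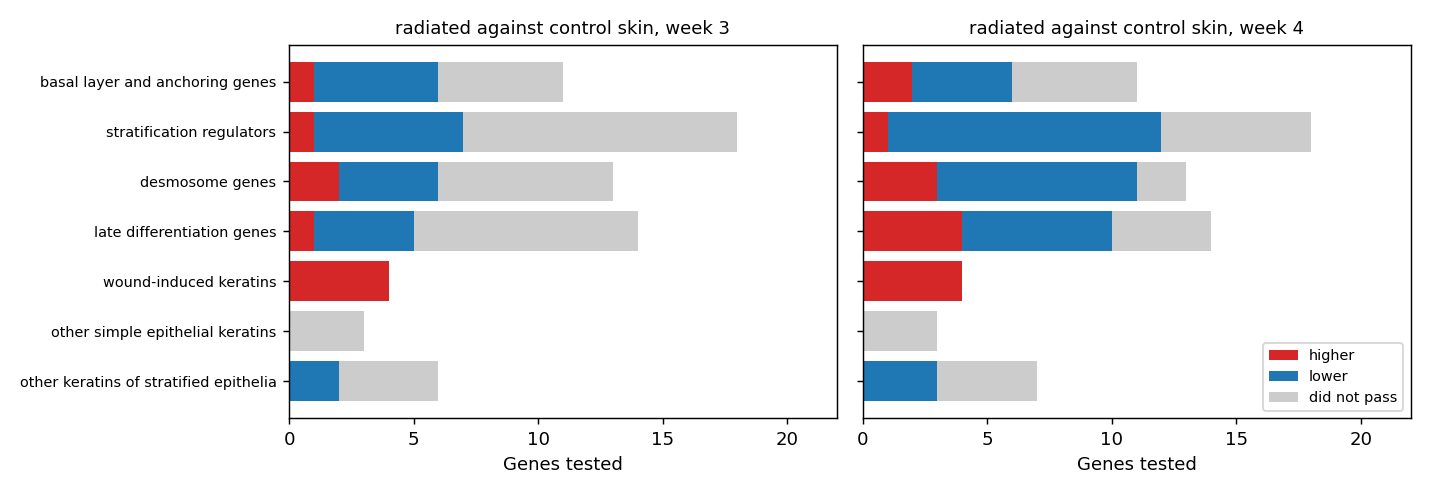
Number of genes in each fixed list that were higher (red), lower (blue) or not called (grey) in radiated against control skin at an adjusted p of 0.05 in edgeR, in weeks 3 and 4. Wound-induced keratins are all higher, while 11 of 18 stratification regulators and 8 of 13 desmosome genes are lower in week 4.

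Markers of other cells moved with the same comparison, in which 24.2% of all genes were called in each direction in week 4. The 5 fibroblast genes summed to 22800 to 36500 CPM in radiated and 1650 to 3630 CPM in control skin of week 4, and 5 of 5 rose. The 6 leukocyte genes summed to 779 to 1200 and 161 to 199 CPM, and 5 of 6 rose while the T cell gene Cd3e fell by 1.23 on the log2 scale. The 5 skeletal muscle genes summed to 893 to 2110 and 1140 to 17500 CPM, and 4 of 5 fell, but only 1 of 5 with the block. Of 9 tested hair follicle genes 6 rose and 1 fell (4 and 1 with the block), and the 13 genes summed to 146, 21.8, 2690 and 41 CPM in the radiated libraries and to 33.6 to 39.6 CPM in control skin. Only radiated replicate 3 was thus far above the rest, and its Krt14 was the lowest of its group. The 6 sebaceous gland genes summed to 807 to 1870 and 1650 to 5630 CPM, and 4 of 6 fell (2 with the block). The 3 endothelial genes (286 to 377 and 121 to 209 CPM) all rose, as did 3 of 4 genes of cycling cells (455 to 575 and 173 to 445 CPM) and 3 of 4 of melanocytes (23.8 to 38.8 and 13.4 to 15.8 CPM). Of 3 Schwann cell genes 2 fell (68.3 to 85 and 113 to 160 CPM), and of 4 adipocyte genes none was called in edgeR (226 to 278 and 158 to 525 CPM; 1 fell with the block). No gene of these lists was at 0 in every library of either group. In week 3, 4 of 5 muscle genes fell (2490 to 7440 CPM in radiated and 14500 to 29200 CPM in control skin), and 4 of 6 leukocyte genes rose (501 to 1280 and 190 to 507 CPM). Of 5 fibroblast genes 1 rose (9250 to 17500 and 1590 to 8850 CPM), as did 2 of 4 genes of cycling cells (4 with the block) and 1 of 3 endothelial genes. In the same week 2 of 6 sebaceous gland, 1 of 4 adipocyte and 1 of 3 Schwann cell genes fell. Of all genes, 13.6% were called in each direction. None of these other-cell lists had a call in week 2 without the block. With it, 4 of 5 muscle genes fell in week 2, and 4 of 5 leukocyte and 2 of 5 fibroblast genes rose. The part of these cells in the keratin values and ratios was not tested.

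In week 3, the radiated libraries differed among themselves in differentiation genes. Late differentiation genes summed to 1060, 2760, 6640 and 16400 CPM in replicates 1 to 4, and Krt1 and Krt10 were lowest in replicate 1 and highest in replicate 4. Krt77 was lowest in replicate 3, and the basal layer list ran only from 4880 to 7060 CPM. Without both radiated replicates 1 and 4, an alternative added after seeing the data, Krt10 was at a log2 fold change of -2.26 (edgeR adjusted p 0.00148) and Krt5 passed (edgeR adjusted p 0.0444). These libraries held the lowest and highest Krt10 and Krt5 of their group, so leaving them out narrows the spread of both genes by choice. The adjusted p of this fit and its count of called members therefore give no support. Krt77 then had -3.41 (edgeR adjusted p 0.0687), and 4 of 7 tested members were called, against 21.7% of all genes in that fit.

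For each member, the 3 genes with the most similar levels were sought among 12532 or 12533 genes of at least 5 CPM, by Pearson correlation of log2 CPM over all 35 libraries. These libraries share weeks and treatment, so the values describe the data and carry no p. Krt10 was followed most closely by Hal (0.977), the histidase of the upper epidermis, Ankrd35 (0.977) and Gm94 (0.974). For Krt77 they were Skint5 (0.984) and Skint6 (0.977), members of a family that selects epidermal T cells, and Bbox1 (0.975). Krt14 had Enah (0.94), an actin regulator, and the wound-induced keratins Krt16 (0.938) and Krt6a (0.927), of which Krt16 shares sequence with Krt14 and Krt6a with Krt5. Krt1 had Flg (0.928) and Hrnr (0.91), filaggrin-type proteins, and Calm4 (0.888). Krt5 had lower values, with Car13 (0.872), Chmp2b (0.841) and the desmosomal cadherin Dsc3 (0.837), as did Krt2 with Ei24 (0.865), Pla2g2f (0.86) and Tmprss11f (0.84). Krt8 had Krt19 first (0.621) and Krt18 had Mlph (0.692).

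Among the members themselves, Krt10 and Krt77 had the highest correlation (0.9 over 35 libraries), followed by Krt2 with Krt77 (0.81). The textbook pairs were less alike: Krt1 and Krt10 had 0.6, Krt5 and Krt14 had -0.27, and Krt8 and Krt18 had 0.77. Krt14 and Krt77 had -0.64.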

How the data were processed

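The members and gene lists were chosen with earlier results of these data known. The authors deposited kallisto estimated counts per gene, made with Trim Galore 0.6.7, kallisto 0.46.2 and mm10 per the submitters' processing notes; the transcriptome release and the step from transcripts to genes are not given in the sources used here. Counts were rounded to whole numbers. Genes passed filterByExpr, libraries were scaled by TMM, and edgeR 4.0.16 in R 4.3.3 fitted each comparison on its own samples (quasi-likelihood F test, Benjamini-Hochberg over all genes tested). Both tools were run on simulated counts with known changes. False calls made up 8.96%, 8.64% and 13.04% for edgeR in radiated against control weeks 1 and 4 and control week 1 against sham. For DESeq2 they made up 22.47%, 21.82% and 33.65%. Of log2 changes of 1, edgeR recovered 42.1%, 63.3% and 22.9%, and DESeq2 51%, 79% and 50%. CPM and its log2 (prior count 2) use TMM factors over 35 libraries; CPM per kb uses GENCODE M21 transcript lengths, and SE is the log2 fold change over the root of F. Alternatives were total-count scaling, no filter, DESeq2 1.42.0, a replicate block, a single fit of 35 samples and leaving out libraries. Same-numbered radiated and control samples were assumed to share a mouse, from the counts of mice and samples, but the main fits had no term for the mouse. Deviations of same-numbered samples correlated at 0.07, 0.17, 0.05 and -0.02 in weeks 1 to 4. In sham comparisons the block leaves out replicate 4. All 8 members are reported; from each list, up to 2 largest called rises and 2 largest called falls per comparison with a mean of at least 5 CPM could be named. The values of 1 gene of the basal layer list are not reported here, although the gene is included in that list's counts. No 2 of 595 library pairs were identical. A gene with 3 counts or fewer is called near detection, which covers counting error only.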

Additional observations from a re-analysis of the deposited data

Results flagged for a closer look

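Among 64 sets of 4 libraries (8 keratins in 8 groups), 7 had 1 library whose distance from the rest exceeded the 95% critical value of Dixon's test; chance flags about 1 in 20. Control replicate 1 of week 1 was flagged as lowest for 3 members at once, with Krt14 at 1046 CPM, Krt10 at 4758 CPM and Krt77 at 5312 CPM, while the others of its group held at least 1363, 6560 and 6784 CPM. It was also the lowest of its group for Krt5 (3457 CPM) and Krt1 (231.5 CPM), without a flag. The 13 hair follicle genes summed to 3210 CPM in this library and to 20.5, 26.5 and 628 CPM in the others; their part in these values was not tested. Control replicate 1 of week 4 was highest for both simple keratins, with Krt8 at 5.186 CPM and Krt18 at 5.398 CPM, and the next libraries had 0.354 and 0.192 CPM. Krt5 was at 7850 CPM in control replicate 2 of week 4, above 6101 CPM in the next. Krt8 in radiated replicate 3 of week 1 was at 0.1305 CPM, which is 3 counts against 1 in each of the others.

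The radiated-minus-control difference changed over the weeks for Krt77 (adjusted p 0.00251), Krt2 (0.0136), Krt5 (0.0418) and Krt18 (0.0475 in edgeR). For Krt18 the 4 weeks include control libraries of 746 and 171 counts in week 2, and the adjusted p was 0.196 with the replicate block.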

How the results depend on the processing

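No member called in a comparison of groups turned direction under any alternative run. Of 83 results for single members, 30 turned at least once (62 values), none of them among the 12 called, and the smallest adjusted p among them was 0.227. Most counts of called members in weeks 1 and 2 and against sham skin are low, and 1 library or tool moved many of them. The cause was not tested.

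Against control skin, the count of called members was 0 in week 1, 3 in DESeq2 and 0 to 2 on leaving out 1 library. In week 2 it was 0, and 2 in DESeq2 and in a single fit of 35 samples. In week 3 it was 3, 5 in the single fit and 1 to 5 on leaving out 1 library. In week 4 it was 5, and 5 or 6 on leaving out 1 library. For radiated against sham skin, DESeq2 gave 2, 1 and 2 members in weeks 1, 2 and 3, where edgeR gave 0, 0 and 1. Without the filter on low counts there were 1 in week 1 and 0 in week 3, and the single fit gave 3 in week 3. Leaving out 1 library gave 0 to 2, 0 to 1 and 0 to 1 members. For control against sham skin, DESeq2 gave 1, 1, 1 and 2, total-count scaling gave 1 in week 1, and no filter gave 1 in week 3 and 2 in week 4. Leaving out 1 library gave 0 to 1 in week 3 and 0 to 3 in week 4. Over the weeks, the interaction called 4 members, 5 in DESeq2, 2 without the filter and 1 to 2 on leaving out 1 replicate number. Its steps from week 1 to 2 and 3 to 4 called 0. Radiated skin gave 6 over the weeks in DESeq2 instead of 2. Control skin gave 5 with total-count scaling, 4 in DESeq2 and 0 to 3 on leaving out 1 number, instead of 1.

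With the replicate block, 2 members were called in week 3 against sham skin instead of 1. Log2 fold changes that turned with the block were those of Krt1 against control skin in weeks 2 (-0.12) and 3 (-0.02) and against sham skin in weeks 2 (-0.13) and 3 (-1.01). In radiated week 1 against sham skin Krt5 had -0.07 and Krt2 -0.53 with the block. In control against sham skin, Krt8 had -0.69, -0.04 and -0.16 in weeks 1, 2 and 4 and Krt18 had -1.41 in week 2 with the block. The block changed no call of a member beside those given with the results above, though it moved counts of several gene lists. Total-count scaling turned Krt5 in control weeks 2 (-0.17) and 3 (-0.11) against sham skin. It shifted the median of all genes by 0.136 in week 1, 0.237 in week 3 and 0.089 in week 4 against control skin. No filter turned Krt5 in control week 1 to 0, and DESeq2 turned Krt1 in control week 3 to 0.01. Without both control replicates 1 and 4, week 2 gave Krt5 -0.15 and Krt1 -0.23, and without both radiated replicates 1 and 4, week 3 gave Krt8 -0.16; both were chosen after seeing the data.

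Leaving out 1 library gave these ranges of the log2 fold change where the direction turned. Against control skin they were -0.14 to 0.23 for Krt5, -0.13 to 0.13 for Krt10 and -0.44 to 0.37 for Krt2 in week 1. They were -0.5 to 0.31 for Krt1 and -0.36 to 0.01 for Krt10 in week 2, and -0.12 to 1.77 for Krt1 and -0.66 to 1.12 for Krt8 in week 3. For radiated against sham skin they were -0.21 to 0.4 for Krt5, -0.54 to 0.26 for Krt2 and 0 to 0.46 for Krt77 in week 1. They were -0.12 to 0.49 for Krt5 and -0.18 to 0.78 for Krt1 in week 2, and -0.12 to 1.82 for Krt1 and -1.46 to 0.32 for Krt8 in week 3. For control against sham skin in week 1 they were -0.32 to 0.29 for Krt5, -0.58 to 0.03 for Krt1, -0.28 to 0.09 for Krt2 and -2.22 to 0.06 for Krt18. In week 2 they were -0.27 to 0.34 for Krt5 and -0.31 to 0.24 for Krt14. In week 3 they were -0.26 to 0.35 for Krt5, -0.37 to 0.17 for Krt14 and -0.22 to 0.39 for Krt1. In week 4 they were -0.03 to 0.44 for Krt2 and -0.79 to 0.13 for Krt18. Low counts limit Krt2, Krt8 and Krt18.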
